A study of Drosophila melanogaster with 2 samples.

Results

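The small heat shock protein genes Hsp22, Hsp23, Hsp26, Hsp27, Hsp67Ba, Hsp67Bb, Hsp67Bc and l(2)efl were examined in embryos of Drosophila melanogaster that carry the homeodomain factor H2.0 fused to green fluorescent protein. The 8 genes were chosen by name, with earlier results of these data known, out of 18277 annotated genes on the assembled arms. Of these, 13968 are protein-coding. Chromatin immunoprecipitation with sequencing (ChIP-seq) used an antibody against the GFP tag in a single group, the H2.0-GFP strain, whole embryos at 0 to 24 h of age, with 2 biological replicates. The strain carries an insertion aimed at H2.0, and no other genotype, age or temperature was compared. Whole embryos mix all tissues, so a peak cannot be placed in a cell type. No control library was analysed here, so peaks are described as sites of signal and not as places where H2.0 binds. A summit, the highest point of a peak, was counted for a gene when it lay in the gene's span or within 1 kb of it. The lists used were the pooled list of peaks past the threshold for the irreproducible discovery rate (IDR; score of 830 or more, IDR of 0.01 or less) and the longer ranked list from which it was cut. Reads were not used, so depth is unknown and no counting error can be given.

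Small heat shock proteins are chaperones without ATPase activity that hold unfolding proteins in a refoldable state, mostly through an alpha-crystallin domain. In flies most of their genes lie together at cytological band 67B and are transcribed strongly on heat shock, when the heat shock factor Hsf binds heat shock elements, which are inverted repeats of GAA units. Several are also transcribed without heat stress during development, and the promoters of some carry GAGA factor sites. Hsp27 encodes a nuclear protein, Hsp26 and Hsp23 encode cytosolic proteins, and Hsp22 encodes a mitochondrial one. Hsp67Bc acts with the co-chaperone Starvin in autophagy, and l(2)efl is a relative of vertebrate alphaB-crystallin. Hsp67Bb is the exception, since it encodes a protein with a rhodanese domain and not a chaperone of this family.

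A thresholded summit lay within 1 kb of 6 of the 8 genes (75.0%), against 28.1% of all protein-coding genes and 21.1% of the 5021 protein-coding genes whose span was in the range of the members' (884 to 2243 bp). The 6 genes shared 4 summits, because neighbours in the cluster lie closer than 1 kb to the same peak. The summit upstream of Hsp26 also counted for Hsp67Ba, and the summit upstream of the inner start of Hsp22 also counted for Hsp67Bb, so the 6 genes are not 6 separate observations. By the annotated start nearest to each summit, 3 members held one, Hsp22, Hsp26 and Hsp27 (37.5%, against 20.0% of protein-coding genes), and the fourth summit belonged to Fdx1, a ferredoxin gene beside Hsp67Bc. The same 3 genes had a summit within 500 bp of a start of their own (37.5%, against 18.2%). Hsp23 and l(2)efl had no thresholded summit. No test was made on these counts, which describe 8 genes of which 7 are neighbours.

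**Figure D1:**
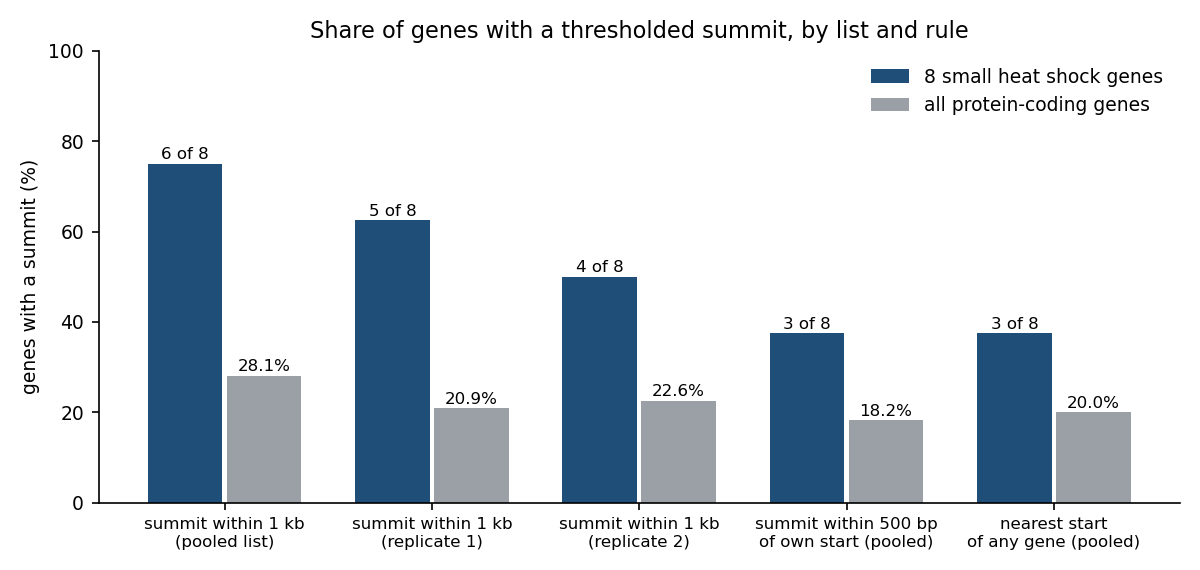
Percentage of genes with a thresholded summit under 5 rules (y axis), for the 8 small heat shock genes (dark bars, with their count) and all protein-coding genes (grey bars). The members stand at 6, 5, 4, 3 and 3 of 8, against 28.1%, 20.9%, 22.6%, 18.2% and 20.0%.

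The 7 genes at 67B span 14.2 kb of arm 3L (dm6, 9371511 to 9385694). Inside this stretch lay 3 thresholded summits, which is 0.212 per kb, against 0.0332 per kb over the arms. The figure for the arms covers all sequence, also that far from genes, whereas the stretch was cut at the member genes. The fourth summit, at Fdx1, lay 409 bp beyond the Hsp67Bc end of the stretch. From the Hsp67Bc end to the Hsp27 end, each summit was higher than the one before. The Fdx1 summit had a signal value of 91.39, the Hsp22 summit 100.49, the Hsp26 summit 174.32 and the Hsp27 summit 572.27, against a median of 94.6 over all 4565 thresholded peaks on the arms. The first pair is therefore ordinary in height, Hsp26 is above 79.4% of peaks and Hsp27 is above 97.7%. The median of the 4 was 137.4. The signal value is the authors' enrichment score for the peak and is compared here only within a list, except where both replicates are named. All 4 peaks had a score of 1000 and a deposited q-value between 0.00124 at Hsp27 and 0.0171 at Fdx1, and all 4 were also in the conservative list.

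**Figure D2:**
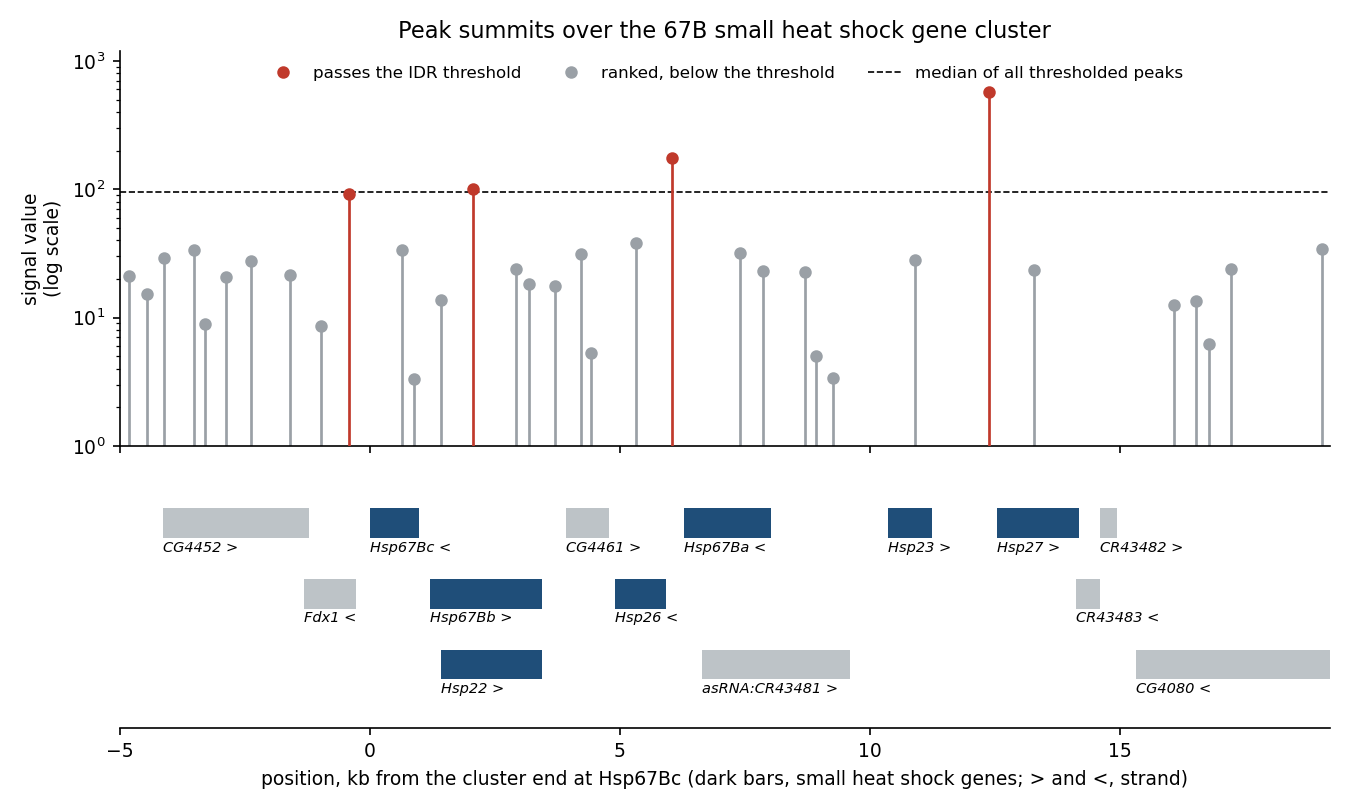
Summits of the ranked list over the 67B cluster (top; x axis in kb from the cluster end at Hsp67Bc, y axis signal value on a log scale), with annotated genes below. The thresholded summits (red) stand at 91.39 beside Hsp67Bc, 100.49 and 174.32 in the middle and 572.27 before Hsp27, and none lies over Hsp23; the ranked summits within 1 kb of a member that missed the threshold (grey) reach at most 38.02.

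Hsp27 (FBgn0001226; 3L, 9384063 to 9385694, plus strand) had the highest peak of the 8 genes. The peak ran over 216 bp, from 9383795 to 9384010, with its summit at 9383903 in intergenic sequence 160 bp upstream of the start. Its signal value of 572.27 was exceeded by 105 of the 4565 peaks, by 72 of the 2101 promoter peaks (those within 500 bp of any annotated start) and by 17 of the 963 peaks on 3L. In the separate lists it stood at 277.03 in replicate 1 and 294.61 in replicate 2, above 95.7% and 97.0% of the peaks of those lists. The summits of the replicates lay 14 and 4 bp from the pooled one. The peak was thus among the strongest in each replicate alone.

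Hsp26 (FBgn0001225; 3L, 9376418 to 9377427, minus strand) had a narrow peak of 98 bp, from 9377508 to 9377605. Only 3.20% of peaks were as narrow or narrower. The summit at 9377560 was intergenic, 133 bp upstream of the outer annotated start and 185 bp upstream of the inner one. It also lay 242 bp past the 3′ end of Hsp67Ba, which is how that gene came to be counted, while the start of Hsp67Ba (FBgn0001227; 9377802 to 9379534, minus strand) was 1974 bp away and had no thresholded summit near it. The signal value of 174.32 in the pooled list corresponded to 73.99 in replicate 1 and 98.79 in replicate 2, above 55.9% and 76.5% of those lists. The summit of replicate 1 lay 37 bp from the pooled one, and that of replicate 2 lay 0 bp from it.

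The sequences before these 2 genes are shown with that of Hsp23, which has a heat shock promoter but no thresholded summit. From them, the distance between a summit and exact matches to the heat shock element can be read off. Each runs 5′ to 3′ on the strand of its gene, was read from the RefSeq Release 6 genome (dm6 coordinates), and has its matches to the 2-unit element (GAANNTTC or TTCNNGAA, both strands searched, overlaps counted) in capitals. Positions count from 0 at the start site.
Hsp27: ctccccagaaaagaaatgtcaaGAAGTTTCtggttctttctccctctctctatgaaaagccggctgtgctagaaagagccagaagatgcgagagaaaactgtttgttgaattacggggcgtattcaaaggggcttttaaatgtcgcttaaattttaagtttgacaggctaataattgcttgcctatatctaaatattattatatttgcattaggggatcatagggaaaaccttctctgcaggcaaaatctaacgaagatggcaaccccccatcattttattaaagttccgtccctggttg
Hsp26: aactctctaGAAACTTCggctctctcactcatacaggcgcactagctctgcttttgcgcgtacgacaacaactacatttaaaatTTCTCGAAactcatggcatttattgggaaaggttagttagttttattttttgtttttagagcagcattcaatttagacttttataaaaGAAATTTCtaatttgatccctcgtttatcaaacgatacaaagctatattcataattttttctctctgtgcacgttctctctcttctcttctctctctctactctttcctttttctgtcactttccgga
Hsp23: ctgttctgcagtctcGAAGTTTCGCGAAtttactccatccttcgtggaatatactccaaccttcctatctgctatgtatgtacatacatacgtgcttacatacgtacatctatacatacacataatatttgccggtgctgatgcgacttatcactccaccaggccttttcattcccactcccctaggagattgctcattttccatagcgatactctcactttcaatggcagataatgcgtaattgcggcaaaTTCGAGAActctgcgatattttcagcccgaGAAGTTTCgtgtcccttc
The Hsp27 stretch is chr3L:9383703-9384002, positions -360 to -61, and its summit is base 201. It holds 1 match, at -338 to -331, which is 171 bp upstream of the summit. The Hsp26 stretch is chr3L:9377428-9377727 on the minus strand, positions -300 to -1 from the outer start, and its summit is base 168. It holds 3 matches, and the one at -128 to -121 starts 5 bp from the summit, just after the TATA letters that cover the summit itself. This placement is that of the pooled summit, and the summit of replicate 1 lay 37 bp away. The Hsp23 stretch is chr3L:9381462-9381761, positions -420 to -121. It holds 4 matches, of which an overlapping pair at -405 to -393 forms a 3-unit element (GAA, TTC, GAA or its inverse, with 2 bases between units). This was the only exact 3-unit match found from 600 bp before to 100 bp after the starts of the 8 genes. Units were searched as exact letters only, so heat shock elements with a mismatch in a unit would be missed at every gene and summit.

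Hsp22 (FBgn0001223; 3L, 9372931 to 9374964, plus strand) shares its outer start with some transcripts of Hsp67Bb (FBgn0001228; 9372722 to 9374964, plus strand; listed as CG4456 in the annotation used), and has an inner start at 9373997. The peak ran from 9373421 to 9373716 (296 bp) with its summit at 9373569, which is 428 bp upstream of the inner start and 638 bp downstream of the outer one. At this base the annotation has the 5′ UTR of the longer Hsp22 transcript and a 3′ UTR of Hsp67Bb. The summit lay farther from its nearest start than 95.1% of the promoter summits, whose median distance was 116 bp (quartiles 61 and 208) and of which 80.6% lay upstream of the start. Replicate 1 had the peak past its threshold at 48.01, above 22.0% of its list. Replicate 2 had a ranked summit 8 bp away at 52.70, but with an IDR of 0.811, so it was not in that thresholded list. Of the 2055 ranked peaks of replicate 2 with this signal or more, 99.2% were past the score, and this was 1 of 17 that were not.

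A stretch upstream of the Hsp22 summit, which it does not reach, is printed for its run of the homeodomain core TAATTA. Many homeodomain proteins bind this core. The 30 bases are chr3L:9373480-9373509 on the plus strand, positions -517 to -488 from the inner start, with the 4 overlapping matches in capitals.
Hsp22: ttaatatTAATTAATTAATTAATTAttaat
With a further match at -465 to -460, 5 matches lay within 100 bp of the summit, the nearest 32 bp from it. Of all 4565 thresholded summits, 722 (15.8%) had at least 1 match within 100 bp, 2 had at least 4, and the Hsp22 summit was the 1 with 5. In the ranked list, 4 of 134701 summits had 5 or more. This count was made after the sequence had been seen, and it depends on the 100 bp window. Within the 50 bp used for the other motifs, the Hsp22 summit had 1 match, and 9.24% of all summits had at least 1. The printed run lay outside that window. Such a match is a description of the letters and does not show a site of H2.0, and the replicates differed on whether the peak passed.

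Hsp67Bc (FBgn0001229; 3L, 9371511 to 9372497, minus strand) was counted through a peak from 9370954 to 9371249, beyond its 3′ end. The summit at 9371102 lay 1395 bp from the start of Hsp67Bc, in an intron of Fdx1 and 44 bp upstream of an inner start of that gene, so by position it is an Fdx1 promoter peak. Its signal value of 91.39 was close to the median of the list, above 47.3% of peaks. It passed in replicate 2 at 49.15, above 30.2% of that list. In replicate 1 it had 41.01 and an IDR of 0.841, and was 1 of 252 ranked peaks, among 3068 with that signal or more, that missed the score. The intronic stretch before the Fdx1 start is chr3L:9371059-9371152 on the minus strand, positions -94 to -1, with its summit at base 51 and the TATAAA letters 12 bp from the summit in capitals.
Fdx1: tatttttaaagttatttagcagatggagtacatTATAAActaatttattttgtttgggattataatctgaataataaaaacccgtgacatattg
This shorter stretch holds no exact match to a heat shock element of either length and no GAGAG, and the Hsp26 stretch holds 3 and 9.

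The replicates were compared at the summits that passed in both. Over 2247 such summits the log2 ratio of the signal values, replicate 2 over replicate 1, had a median of -0.13 (quartiles -0.40 and 0.14, SD 0.43), and the median distance between summits was 17 bp. The Hsp27 summit had a ratio of 0.09, close to this median. The Hsp26 summit had 0.42, above 90.8% of all ratios, so it was relatively higher in replicate 2, within 2 SD of the median. In replicate 1, 5 of the 8 genes were covered (62.5%, against 20.9% of protein-coding genes), and in replicate 2, 4 were (against 22.6%). In each list these genes stood on 3 separate summits, because neighbours share peaks, and 1 of those in replicate 2 was the Fdx1 summit. The covered genes are therefore not separate observations. Hsp22 and Hsp67Bb were covered in replicate 1 only and Hsp67Bc in replicate 2 only, in each case through the single peak described above. With 2 samples in 1 group, no difference between conditions can be tested.

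**Figure D3:**
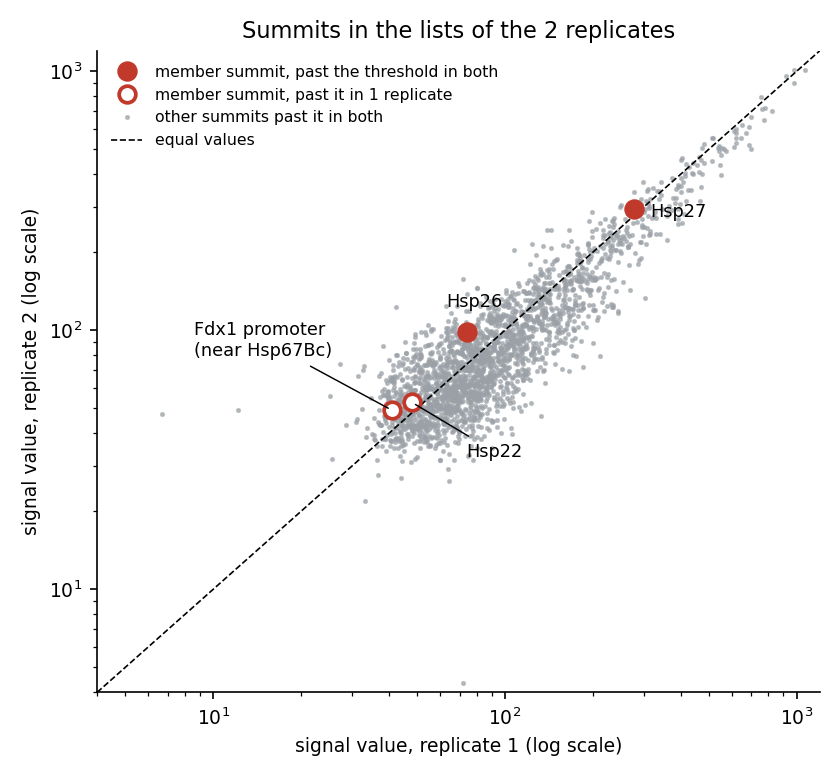
Signal value of summits in replicate 1 (x axis) and replicate 2 (y axis), both on log scales; filled red points are members' summits past the threshold in both replicates, open red points passed in 1 replicate and take the other value from its ranked list, and grey points are other summits past it in both. Hsp27 (277.03 and 294.61) lies far up the diagonal, Hsp26 (73.99 and 98.79) above it, and the open points lie in the lower part of the cloud; the 2 lists are not scaled to each other, so the diagonal is a guide only.

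Hsp23 (FBgn0001224; 3L, 9381882 to 9382765, plus strand), between Hsp67Ba and Hsp27 in the cluster, had a single ranked summit within 1 kb. It lay in the coding exon 533 bp downstream of the start, with a signal value of 28.27 and an IDR of 0.375. Replicate 2 had it at 19.43 (IDR 0.517), and replicate 1 had no ranked summit within 200 bp. The nearest thresholded summit was that of Hsp27, 1138 bp beyond its 3′ end, which is 138 bp outside the rule. The farthest summit that did count was the Fdx1 one, 409 bp from the span of Hsp67Bc, and the nearest left out was the Hsp22 one, 1072 bp from the same span. At a distance of 2 kb, Hsp23 would count as covered through the Hsp27 peak. Its own promoter had no ranked summit within 500 bp of the start, so the 3-unit heat shock element at -405 had no summit of any height beside it.

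The gene l(2)efl (FBgn0011296; 2R, 23684651 to 23685543, minus strand) is the member outside the cluster and lies in an intron of St3. It had 5 ranked summits, with signal values of 26.64, 14.68, 8.90, 8.12 and 7.40, and none passed. The highest lay in its coding exon 337 bp downstream of the start (IDR 0.778), with 2.20 in replicate 1 and 11.17 in replicate 2. The nearest thresholded summit lay 2314 bp upstream, next to the start of Pal2, with a signal value of 55.41, above 8.1% of the list. By its strongest ranked summit l(2)efl stood above 22.9% of all protein-coding genes and Hsp23 above 26.3%. Hsp27 stood above 98.8%, Hsp26 and Hsp67Ba above 91.1% and Hsp22 and Hsp67Bb above 83.1%, while Hsp67Bc was above 81.3% through the Fdx1 summit. The members' median was 100.5, against 38.2 over protein-coding genes, with a shared summit counted for every gene within 1 kb. Hsp67Ba, Hsp67Bb and Hsp67Bc thus took their values from the summits at Hsp26, Hsp22 and Fdx1. Among ranked summits nearest to a start of their own, Hsp67Ba reached 31.99, Hsp67Bc 33.77 and Hsp67Bb 13.74, at the start it shares with Hsp22. The other members' values are from summits nearest to their own starts.

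All 8 genes had a ranked summit within 1 kb, as had 92.8% of protein-coding genes, so the ranked list sets no gene apart. The members had 25 ranked summits between them. The 21 that missed the threshold had signal values of 3.33 to 38.02 (median 18.3) and IDR values of 0.151 to 0.883, well short of the 4 that passed. The highest, 38.02, was in the coding exon of Hsp26, 540 bp downstream of its inner start. Of the 21, 15 (71.4%) lay in coding exons, 9 of them in exons of members, against 24.9% of the 130015 ranked summits below the score over the arms. By gene, 7 of the 8 members had such a weak summit in a coding exon of their own, with Hsp67Bb as the one without, which is near the 77.9% of all protein-coding genes and the 79.3% of those with a span in the members' range. No thresholded summit of a member lay in a coding exon, but these are only 4, and no share of all thresholded summits is given beside them.

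Motifs within 50 bp of the 4 summits were few. The inverted element GAANNTTC was at the Hsp26 summit and at 2.87% of all summits, and TTCNNGAA was at no member summit and at 2.63% of all. The 3-unit element was at none, and at 0.110% of all summits. GAGAG was at none of the 4 (9.40% of all), and within 100 bp it occurred at Hsp26 and Hsp22 (22.9% of all). TATAAA was at the Hsp26 and Fdx1 summits (21.3%), and TAATTA and the Mef2 motif were at the Hsp22 summit (9.24% and 6.48%). The NK-class homeodomain motif TNAAGTG, the DREF site TATCGATA and the nuclear receptor core AGGTCA were at none of the 4 (7.58%, 1.71% and 2.32% of all). The sequence within 50 bp of the summits had a GC content of 31.7% at Hsp27, 24.8% at Hsp26, 28.7% at Hsp22 and 24.8% at Fdx1, each below the median of 33.7% over all summits. No single motif of the set was shared by all 4 summits, and the strongest, Hsp27, had none of the 10 within 50 bp.

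**Figure D4:**
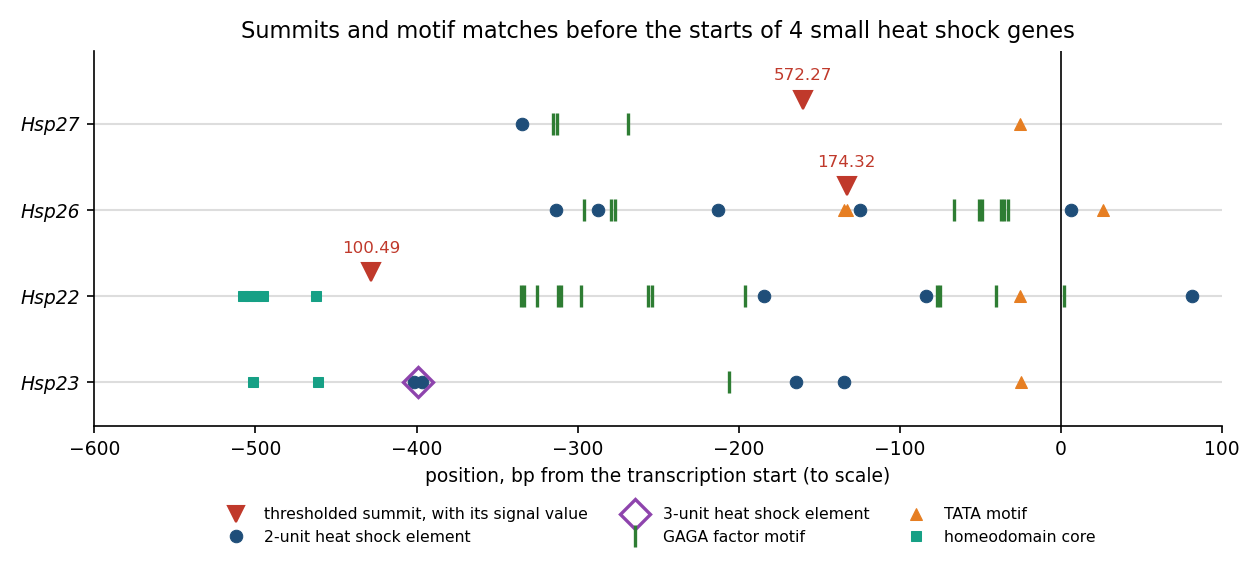
Thresholded summits (red triangles, with signal value) and motif matches from 600 bp before to 100 bp after the start of 4 small heat shock genes (x axis, bp from the start; the outer start of Hsp26 and the inner start of Hsp22). The pooled Hsp26 summit stands on a TATA match and 5 bp from a 2-unit heat shock match, while that of replicate 1 lay 37 bp away. The Hsp27 and Hsp22 summits stand clear of heat shock matches by 171 and 240 bp, and Hsp23 has a 3-unit match and no summit.

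Promoters, taken from 250 bp before to 50 bp after the main annotated start, were searched in the same way. GAANNTTC was present in 4 of the 8 members, Hsp23, Hsp26, Hsp67Bc and l(2)efl, against 9.36% of protein-coding promoters. At any annotated start it was present in 6, with Hsp22 and Hsp67Bb added, against 1672 of the 13968 protein-coding genes, and the match of Hsp67Bb is the one of Hsp67Bc, which starts in the opposite direction. TTCNNGAA was present in Hsp23 and Hsp26, against 7.67%. GAGAG was present in 4 members (30.2% of all promoters), namely Hsp23, Hsp26 and the pair Hsp22 and Hsp67Bb, which have the same main start. TAATTA was in none of the 8 (20.0%), and TATCGATA was in none (8.94%). TATAAA on either strand was present in 7 of the 8 members and in 45.3% of all promoters. A TATAAA on the gene's strand with its first base 35 to 20 bp before the start was present at the main start of 4 of the 8 members (against 7.14% of protein-coding genes) and at any annotated start of 6 (75.0%, against 8.53%). It began at -28 for Hsp22, Hsp26, Hsp27, Hsp67Bc and l(2)efl and at -27 for Hsp23. In Hsp22 and Hsp26 it stood at the inner start. The position of this motif was examined after its values had been seen. Of the 6 members with a thresholded summit 4 had it, and Hsp67Ba and Hsp67Bb did not, while Hsp23 and l(2)efl had it without a summit. Over all genes, 60 promoters held the 3-unit element, none of them of a member in this window, and 30.0% of these had a summit within 500 bp of an own start, against 18.2% of promoters without it.

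Other genes of the heat shock response were looked at beside the 8. Of 25 other chaperone and heat shock genes found in the annotation, 8 had a thresholded summit within 1 kb (32.0%, against 28.1% of protein-coding genes) and 6 had it at a start of their own (24.0%, against 18.2%). The median signal value of these 8 was 149.3. The near-identical Hsp70 copies are among those without one, and peak calls at such copies are uncertain. The highest were Hsp10 (listed as CG11267; 272.66, with 154.40 and 110.30 in replicates 1 and 2), the mitochondrial co-chaperonin gene, Hsp83 (271.44, with 125.51 and 146.49), the fly Hsp90 gene, and stv (170.49, with 96.23 and 63.67), which encodes Starvin. None of these reached Hsp27. Hsp10 had 2 thresholded summits within 1 kb and Hsp83 had 3, and only the position of the highest is given. That of Hsp10 lay 134 bp upstream of the start and that of Hsp83 1038 bp downstream. The single stv summit lay 620 bp upstream. Of the 4 other genes listed with an alpha-crystallin domain, 0 had a thresholded summit. The highest ranked signal values among them were 38.02 at CG4461, 37.42 at CG14207 and 36.56 at CG13133. CG4461 lies inside the cluster between Hsp22 and Hsp26, and its value is that of the weak summit in the Hsp26 coding exon. The antisense RNA gene asRNA:CR43481, which overlaps Hsp67Ba, was counted for the Hsp26 summit alone.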

How the data were processed

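The members and the gene lists were chosen with earlier results of these data known. The labels give 1 group of 2 biological replicates, with fragments of 200 to 800 bp. Peak lists on dm6 were used as deposited, 1 pooled, 1 conservative and 1 per replicate past the threshold, with the ranked lists behind them. The deposited score is the authors' IDR score, where 830 stands for an IDR of 0.01. The deposited signal value is the authors' enrichment per peak and is not scaled between lists. The authors also deposited −log10 of a q-value and, in ranked lists, −log10 of the global IDR. The sources used here do not name the aligner or the peak caller. The pooled list is not taken as agreement between replicates.

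Summits on the 7 arms (4565 of 4590 pooled peaks) were placed on Ensembl release 115, and no peak ran past the end of an arm of the RefSeq Release 6 genome. Hsp67Bb was matched through a RefSeq synonym. The promoter distance was 500 bp, and summits within 200 bp were called shared. Motifs were searched within 50 bp of summits on both strands with Python 3.11.15 (plots by matplotlib 3.10.9), and the counting steps were tested on simulated data. Named genes were the 8 members, the 3 highest of each other list, genes with the start nearest to a counted summit, and genes inside the cluster, while St3 and Pal2, which hold or neighbour l(2)efl and its nearest summit, were named after their values were seen. No p-value was computed. Alternatives were other peak lists, thresholds, distances, assignment rules and motif windows.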

Additional observations from a re-analysis of the deposited data

How the results depend on the processing

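The count of 6 members with a summit stayed within 1.5 times under 11 of 13 alternatives. It was 2 for summits inside the gene span, where 1 separate summit was left of 4, and 3 where a summit counted only for the gene of any kind with the nearest start. Under each of these rules the share of all protein-coding genes with a summit was also lower than under the main rule. The count of 3 members with a summit at an own start ranged from 2 to 4 over 9 alternatives, while the share of protein-coding genes ranged from 11.0% to 22.3%. With the list of replicate 1 in place of the pooled one, 5 members had a summit (against 20.9% of protein-coding genes) and 3 a promoter summit (against 12.8%). With that of replicate 2, 4 had a summit (against 22.6%) and 2 a promoter summit (against 14.5%). Separate summits numbered 3 in each. Percentiles within the list of a single replicate were 95.7 to 97.0 for Hsp27, 55.9 to 76.5 for Hsp26 and Hsp67Ba, 22.0 for Hsp22 and Hsp67Bb (replicate 1 only) and 30.2 for Hsp67Bc (replicate 2 only). In the conservative list they were 51.5 for Hsp22 and Hsp67Bb and 45.0 for Hsp67Bc. With 100 bp in place of 50 bp, member summits with a motif numbered 1 for TTCNNGAA (5.35% of all summits) and 2 for GAGAG (22.9%). They numbered 2 for TAATTA (15.8%) and 2 for Mef2 (11.9%). A wider window holds more sequence. No paired analysis was possible because there is 1 group. Without reads, depth limits cannot be stated.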
